A study of Mus musculus with 8 samples.

Results

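The effect of TCDD on thymus emigrants was set against its effect on thymocytes, over all 8 arrays of the series and 12394 genes. For each gene the difference between TCDD and oil in the emigrants, less the same difference in the thymocytes, gave 1 value, the interaction, on the log2 scale. A value above 0 means that the gene stood relatively higher under TCDD in the emigrants, and a value below 0 that it stood relatively higher under TCDD in the thymocytes. The interaction was taken from the means of 2 arrays a group and also from the 4 arrays numbered 1 and the 4 arrays numbered 2 on their own.

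TCDD is 2,3,7,8-tetrachlorodibenzo-p-dioxin. The thymocytes_oil and emigrants_oil groups came from mice given corn oil by intraperitoneal injection, and the thymocytes_TCDD and emigrants_TCDD groups from mice given 10 µg/kg TCDD in the same vehicle. All were female C57BL/6 mice of 6 to 8 weeks. On day 5 the thymus was labelled with FITC, and 24 h later FITC-positive cells without CD4 and CD8 were sorted from the thymus (thymocytes) or from the spleen (emigrants). The FITC label was therefore the only mark of thymic origin in the spleen cells. RNA was amplified before hybridisation to Affymetrix arrays, and with 2 arrays a group their number sets the precision. The labels name neither separate animals or pools behind the arrays of a group nor a common origin of thymus and spleen cells. The p-values therefore reflect the spread among these 8 samples alone, and that spread may be technical. Groups follow the array titles. The Treatment field of emigrants oil 1 names TCDD at 10 nM, that of emigrants oil 2 reads Dioxane 2, some emigrant arrays have Thymus in the Tissue field, and the description of the thymocyte TCDD arrays mentions the vehicle only.

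TCDD acts through the aryl hydrocarbon receptor (AhR), which waits in the cytoplasm in a complex with HSP90. A bound ligand sends the receptor to the nucleus, where it pairs with ARNT and binds DNA elements with the core GCGTG. Classical target genes encode the cytochromes P450 of the CYP1 family, phase II enzymes such as NQO1, and the feedback repressors AHRR and TIPARP. In mice TCDD is long known to shrink the thymus, and the receptor is present in immature thymocytes. Cells that lack CD4 and CD8 are the earliest stages of T cell development in the thymus.

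The labelled identity was checked first. The pan-leukocyte gene Ptprc lay between 11 and 12.21 on the log2 scale, Thy1 between 8.45 and 9.41 and Cd3e between 8.09 and 8.91 in the 8 arrays, while Cd4 stayed between 4.53 and 5.31, near the array medians of 4.81 to 4.91. Cd8a ranged from 4.57 to 7.14, so its transcript was above the medians in some libraries of both sources. The sources differed in Il2ra, at 6.88 to 8.47 in thymocytes and 4.77 to 6.12 in emigrants. They also differed in Cd44, at 7.21 to 8.37 in thymocytes and 8.54 to 9.41 in emigrants. The array emigrants TCDD 2 stood apart: Cd24a, a surface marker of immature thymocytes, was at 5.72 there and between 9.26 and 11.55 elsewhere, and Myb, a transcription factor of progenitors, was at 5.31 there and between 9.96 and 11.61 elsewhere. RNA quality also moved with the comparison. The 3′ signal less the 5′ signal of the actin control gave an interaction of 0.57 in the arrays numbered 1 and 0.51 in those numbered 2, and that of the Gapdh control 0.49 and 0.60. In every group the actin value was higher in the array numbered 1, from 3.92 against 3.34 in oil emigrants to 4.31 against 3.06 in TCDD thymocytes. For Gapdh this held in the thymocytes, at 6.23 against 4.97 with oil, and not in the emigrants. The part of RNA quality in the results below, also in those by replicate number, was not tested.

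No gene had an interaction past the threshold. With limma and Benjamini-Hochberg adjustment over the 12394 genes, 0 (0.0%) passed an adjusted p of 0.05 and the smallest adjusted p was 1.0. Before adjustment 146 genes had a p under 0.05, of which 36 had an interaction above 0 (0.29%) and 110 below 0 (0.888%). Without any difference a share of about 0.05 of the genes would be met, and both shares together lie below that. Deviations from the group means correlated between same-numbered arrays of a source, at 0.76 within thymocytes and 0.5 within emigrants. This fit leaves them in the spread, so its p-values may be too large if the numbers pair the arrays, which is not known. The median interaction was 0.04, 7023 genes (56.7%) lay above 0, the median SE was 0.31, and the unadjusted 95% interval of a typical gene reached 0.74 to either side. Names such as shared or restricted therefore describe where the arrays lay and do not stand for a tested difference. The classes were cut from the same values that are shown for their members, and no member's value supports its class.

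The TCDD differences of the 2 sources, which share no array, were almost unrelated across genes. Pearson's r between them was 0.02 and Spearman's rank correlation 0.0 over 12394 genes, and r was 0.04 over the 7448 genes with both arrays of some group above their array medians. Genes are not independent replicates, and all 8 arrays were normalized together. Within the thymocytes the differences from the arrays numbered 1 and from those numbered 2 had an r of 0.3, and within the emigrants the r was -0.04. Since the emigrant difference was not repeated between its own arrays, the low r between sources cannot show that they responded differently. The TCDD arrays were both above the oil arrays for 1212 genes in the thymocytes (9.78%) and 1808 in the emigrants (14.6%), and both below them for 1412 (11.4%) and 1257 (10.1%). In 639 genes the arrays did not overlap in either source, and of these 325 pointed the same way in both sources and 314 opposite ways.

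**Figure D1:**
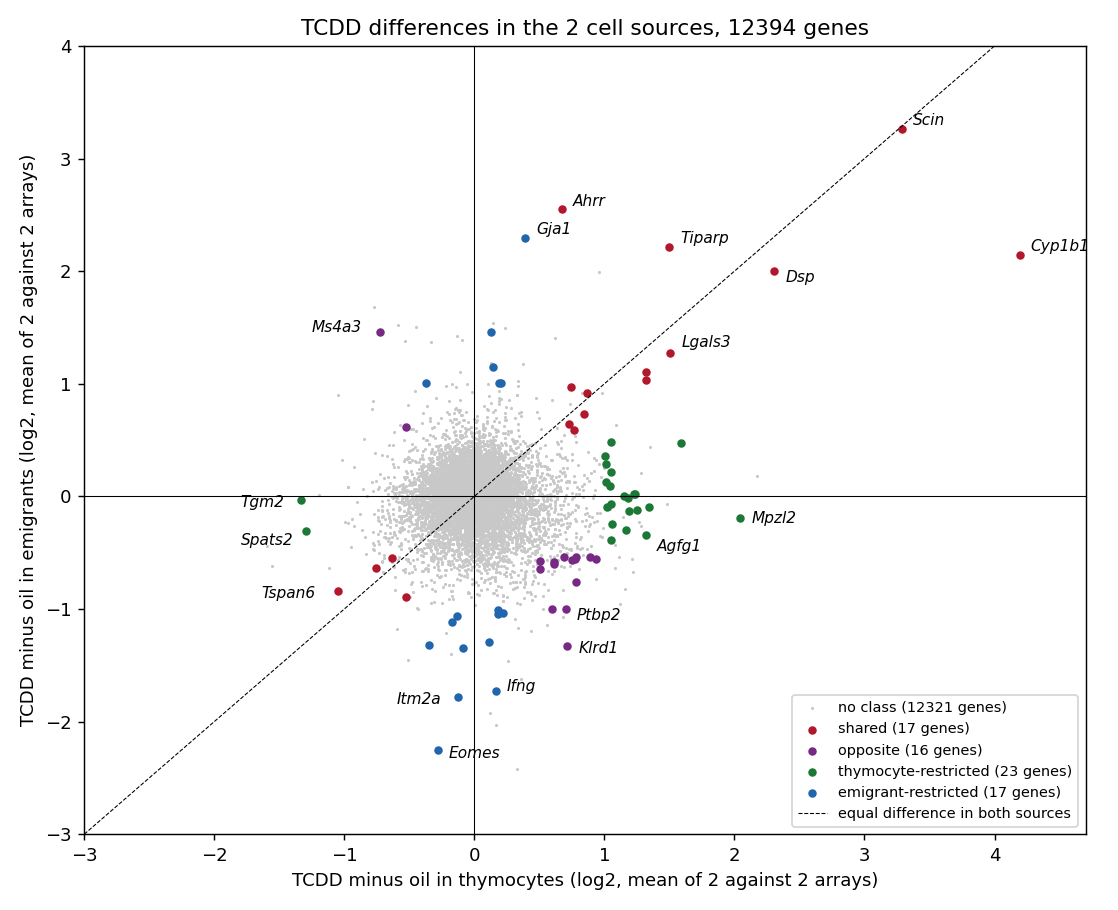
Each point is 1 of 12394 genes, with the log2 difference between TCDD and oil in thymocytes (x axis) and in emigrants (y axis), from means of 2 arrays a group. Coloured points are the 17 shared, 16 opposite, 23 thymocyte-restricted and 17 emigrant-restricted genes. Scin lies on the dashed line of equal difference, Cyp1b1 below it and Ahrr above it, and most genes form a round cloud around 0.

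A small set of genes, known AhR targets among them, stood high under TCDD in both sources. A gene was placed among the shared ones when both TCDD arrays lay beyond both oil arrays in the same direction in both sources, with a mean log2 difference of at least 0.5 in each. On this rule 13 genes (0.105%) were higher under TCDD in both sources: Scin, Cyp1b1, Dsp, Tiparp, Lgals3, Ifitm1, Rcbtb2, Tgfb3, Ahrr, Kit, St8sia1, Itgb7 and Camkk2. Their differences ran from 0.68 to 4.20 in the thymocytes and from 0.59 to 3.26 in the emigrants. Only 4 genes (0.0323%) were lower in both.

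Scin encodes scinderin, which severs actin filaments. Its level was 7.88 and 7.37 in the oil thymocytes and 11.09 and 10.74 with TCDD, and 4.88 and 4.87 in the oil emigrants against 9.97 and 6.30 with TCDD. The arrays did not overlap in either source, but the emigrant TCDD arrays were far apart. The means gave 9.75-fold in thymocytes and 9.60-fold in emigrants, with an interaction of -0.02 (SE 1.49). That near-zero value was the mean of 1.89 in the arrays numbered 1 and -1.94 in those numbered 2. It was -1.86 without emigrants TCDD 1 and 1.81 without emigrants TCDD 2, so the 95% interval from -3.62 to 3.58 does not show that the sources acted alike.

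Cyp1b1, a cytochrome P450 that oxidises polycyclic hydrocarbons and steroids, was the gene with the largest thymocyte difference in its class. Oil thymocytes had 4.62 and 5.04 and TCDD thymocytes 8.46 and 9.59. Oil emigrants had 4.69 and 6.25 and TCDD emigrants 6.87 and 8.36. TCDD arrays were above oil arrays in both sources, and the emigrant oil arrays already differed by more than 1 log2 unit. The difference was 4.20 in thymocytes (SE 0.71) and 2.15 in emigrants (4.42-fold), and the interaction of -2.05 (SE 1.0, limma unadjusted p = 0.083) was -1.66 and -2.44 in the 2 replicate numbers. Other probe sets of Cyp1b1 were dim, at means of 4.96 and 3.40, with interactions of 0.27 and -0.55.

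Tiparp, an ADP-ribosyltransferase that limits AhR signalling, leaned the other way. Its level was 5.55 and 5.96 in oil and 6.68 and 7.83 in TCDD thymocytes, and 6.56 and 5.83 in oil and 7.74 and 9.09 in TCDD emigrants. The folds were 2.82 and 4.64, and the interaction was 0.72 (SE 0.8), which lay between 0.04 without emigrants TCDD 2 and 1.39 without emigrants TCDD 1. Another probe set, at a mean of 6.55, had differences of 1.57 and 2.64.

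Ahrr, the AhR repressor that competes for ARNT, showed the same tilt from a floor near background. It was at 4.38 and 3.89 in oil and 4.63 and 5.00 in TCDD thymocytes, and at 3.93 and 3.81 in oil and 5.19 and 7.65 in TCDD emigrants. Both oil groups lay below their array medians, so no fold is given. The log2 differences were 0.68 and 2.55 and the interaction 1.87 (SE 1.02, limma unadjusted p = 0.114), at 1.01 and 2.73 in the replicate numbers and 0.64 without emigrants TCDD 2.

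Dsp, which encodes the desmosome protein desmoplakin, was at 3.69 and 3.84 in oil and 5.12 and 7.02 in TCDD thymocytes, and at 4.12 and 3.79 in oil and 5.69 and 6.22 in TCDD emigrants. Its oil groups lay below the array medians. The interaction was -0.31 (SE 0.82), and a second probe set at a mean of 4.84 had differences of 2.38 and 2.01, close to those of the first, 2.31 and 2.00. Lgals3, the galactose-binding lectin galectin-3, was 2.84-fold higher in thymocytes and 2.42-fold in emigrants, Ifitm1, an interferon-induced membrane protein, 2.5-fold and 2.15-fold, and Rcbtb2, a protein with RCC1 and BTB domains, 2.5-fold and 2.05-fold. Their interactions were -0.23 (SE 0.71), -0.22 (SE 0.82) and -0.29 (SE 0.57). For Ifitm1 the arrays numbered 2 were the brighter ones in every group, from 8.80 against 7.72 in oil thymocytes to 10.42 against 9.59 in TCDD emigrants. The brighter of the other Rcbtb2 probe sets, at a mean of 6.00, had differences of 2.55 and 0.80.

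**Figure D2:**
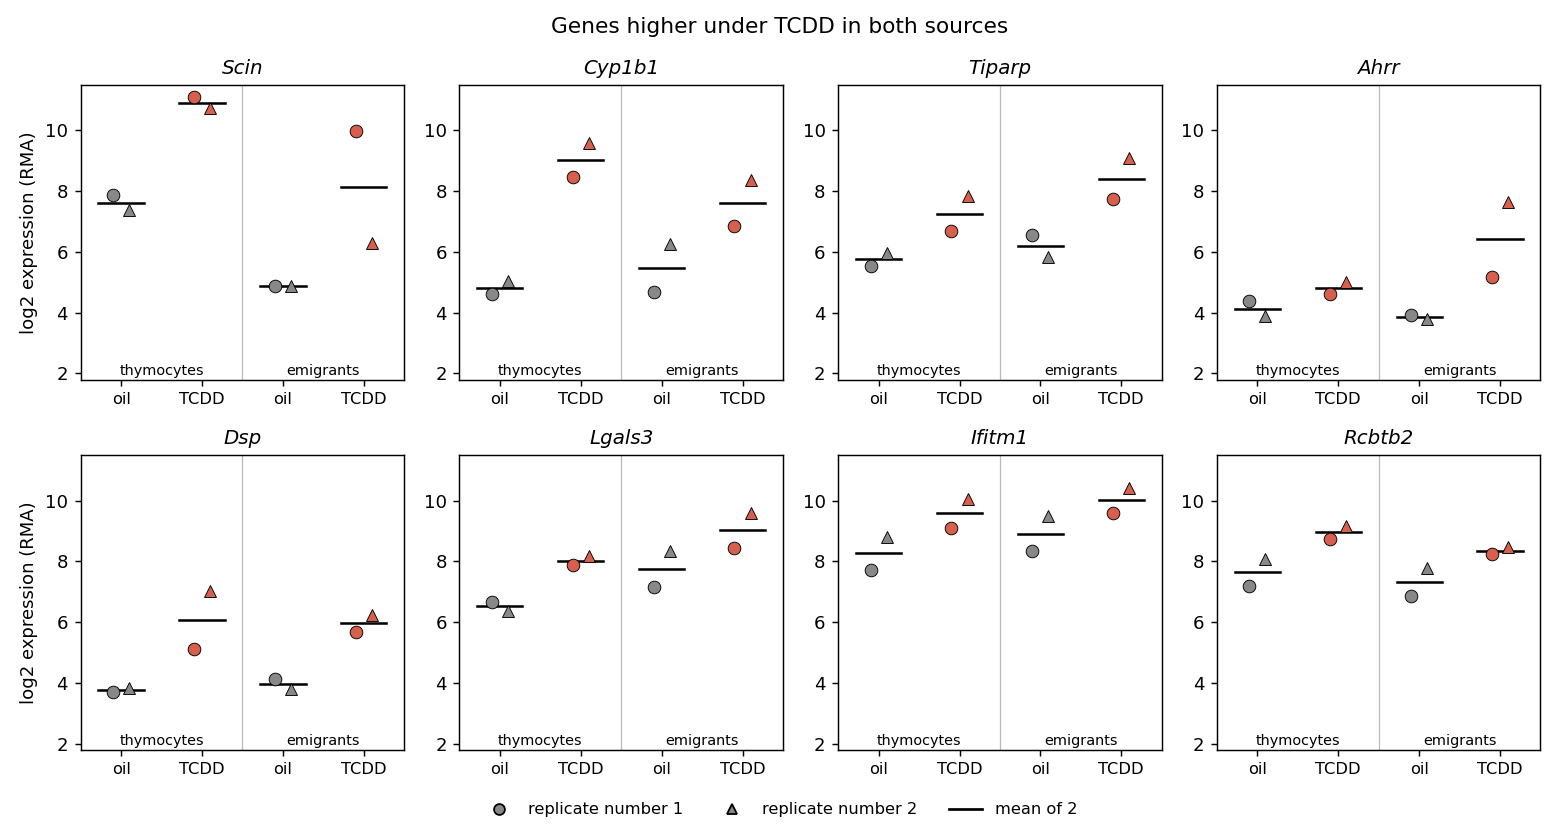
Log2 expression (RMA) of 8 genes that stood higher under TCDD in both sources, with 1 point per array, circles for replicate number 1, triangles for number 2, grey for oil and red for TCDD, and a bar at the mean of 2. In each panel both red points lie above both grey points within a source, and the red emigrant points of Scin (9.97 and 6.30) and Ahrr (5.19 and 7.65) are far apart.

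The remaining members of this class had smaller and more even differences. Tgfb3, a transforming growth factor beta, had 0.87 in thymocytes and 0.92 in emigrants (interaction 0.05, SE 0.43). Kit, the stem cell factor receptor carried by early thymocytes, had 0.74 and 0.97, but 0.02 in the emigrant arrays numbered 1 and 1.92 in those numbered 2. A dim probe set of Kit, at a mean of 4.72, had 0.10 and 0.20. Itgb7, the beta 7 integrin chain, had 0.76 and 0.59, and Camkk2, a calcium-dependent kinase, had 0.72 and 0.64. St8sia1, which encodes a ganglioside sialyltransferase, had 0.84 and 0.74 and an interaction of -0.11 (SE 0.25), with 3 of the 4 groups below the array medians. The SE values of these interactions mean that none of the 13 was shown to differ between the sources, and none was shown not to.

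The 4 genes lower in both sources were Tspan6, Arf4, Cops3 and St13. Tspan6, a tetraspanin, had log2 differences of -1.05 in thymocytes and -0.84 in emigrants, Arf4, a small GTPase of the Golgi, -0.76 and -0.64, Cops3, a subunit of the COP9 signalosome, -0.63 and -0.54, and St13, an HSP70 cochaperone, -0.53 and -0.89. Another probe set of Arf4, at a mean of 6.77, had 0.00 and -0.25. None had an interaction beyond -0.36 to 0.21.

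Promoters of the shared genes were read for the AhR core. The 250 bases before the start of the 5 genes named above as known targets or with large differences in both sources are shown 5′ to 3′ from RefSeq (GRCm38.p6), in lower case, with GCGTG or its reverse complement CACGC in capitals.
Scin, chr12:40134229-40134478, minus strand: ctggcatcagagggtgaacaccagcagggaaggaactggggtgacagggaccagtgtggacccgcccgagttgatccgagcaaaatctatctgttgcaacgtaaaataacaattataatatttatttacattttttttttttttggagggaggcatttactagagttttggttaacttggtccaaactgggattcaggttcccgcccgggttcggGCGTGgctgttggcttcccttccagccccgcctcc
Cyp1b1, chr17:79715062-79715311, minus strand: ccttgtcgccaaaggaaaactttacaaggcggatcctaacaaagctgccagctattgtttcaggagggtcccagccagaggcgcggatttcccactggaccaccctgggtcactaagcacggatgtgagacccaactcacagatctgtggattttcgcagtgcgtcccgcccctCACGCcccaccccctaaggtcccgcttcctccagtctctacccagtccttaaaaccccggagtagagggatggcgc
Tiparp, chr3:65528197-65528446, plus strand: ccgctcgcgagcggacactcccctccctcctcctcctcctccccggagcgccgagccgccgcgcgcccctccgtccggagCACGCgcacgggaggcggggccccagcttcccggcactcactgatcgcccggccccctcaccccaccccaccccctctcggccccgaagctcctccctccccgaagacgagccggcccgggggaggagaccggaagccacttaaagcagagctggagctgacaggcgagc
Dsp, chr13:38151044-38151293, plus strand: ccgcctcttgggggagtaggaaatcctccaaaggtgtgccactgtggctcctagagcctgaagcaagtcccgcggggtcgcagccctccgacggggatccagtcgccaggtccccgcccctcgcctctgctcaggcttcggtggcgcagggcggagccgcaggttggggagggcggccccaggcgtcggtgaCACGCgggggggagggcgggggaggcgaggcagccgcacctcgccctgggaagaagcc
Ahrr, chr13:74292332-74292581, minus strand: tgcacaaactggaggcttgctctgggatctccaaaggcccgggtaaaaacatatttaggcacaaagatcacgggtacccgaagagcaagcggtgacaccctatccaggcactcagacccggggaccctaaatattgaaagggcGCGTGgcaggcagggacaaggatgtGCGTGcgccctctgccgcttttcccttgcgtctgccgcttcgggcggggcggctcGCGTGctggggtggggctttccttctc

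The core began at -35 from the start in Scin, -76 in Cyp1b1, -170 in Tiparp and -58 in Dsp, and at -107, -82 and -27 in Ahrr. On either strand GCGTG was in 9 of the 12 shared higher genes with a promoter entry (75.0%), in 6 of 9 AhR target genes (66.7%) and in 4017 of the 9888 measured genes with an entry (40.6%). These sets overlap, since 4 of the AhR target genes are among the shared ones. It was in 0 of 3 shared lower genes, 5 of 10 genes with opposite differences that were higher in thymocytes, and 4 of 18 thymocyte-restricted higher genes (22.2%). Of the emigrant-restricted genes it was in 3 of 4 higher (75.0%) and 2 of 9 lower ones (22.2%). The longer form TNGCGTG, which contains the core, was in 1 of the 12 shared higher genes, Ahrr, and in 6.02% of measured genes. A match is a description of the letters in this window only.

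The AhR target list held 12 genes, of which 11 were measured. In the thymocytes 8 had a difference above 0 and in the emigrants all 11, with medians of 0.08 and 0.60, against medians of -0.01 and 0.03 over all genes. TCDD arrays lay above oil arrays without overlap for 6 members in thymocytes (against 9.78% of all genes) and 7 in emigrants (against 14.6% of all genes). In both sources 6 members did so. Of all 12394 genes, 325 lay without overlap on the same side in both sources, higher and lower together. The 6 include Cyp1a2, with differences of only 0.06 and 0.17 and every group below the array medians. They also include Nqo1 and Ahrr, whose oil groups lay below the medians. A lack of overlap at such levels does not by itself show induction. Of the interactions 9 were above 0 and 2 below, with a median of 0.22, which was 0.09 in the arrays numbered 1 and 0.43 in those numbered 2 and stayed between 0.13 and 0.26 when 1 array was left out. No member passed an unadjusted p of 0.05 for the interaction. The list was chosen with earlier results of these data known.

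Members besides the shared ones were dim or nearly flat. Cyp1a1, the best known target, was at 4.0 and 4.06 in oil and 3.78 and 4.07 in TCDD thymocytes, and at 4.20 and 4.08 in oil and 4.22 and 5.59 in TCDD emigrants. Only emigrants TCDD 2 was above its array median, and the interaction of 0.87 (SE 0.59) was 0.19 without it. Nqo1, the quinone reductase, had 0.47 in thymocytes and 0.48 in emigrants, from oil groups below the medians. Selenbp1 had 0.08 and 0.60, Xdh, xanthine dehydrogenase, -0.33 and 0.23, Nfe2l2, the master regulator of antioxidant genes, -0.09 and 0.13, Cyp1a2 0.06 and 0.17 and Aldh3a1 0.05 and 0.10. Cyp1a2 and Aldh3a1 were below the medians in all 4 groups.

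The receptor itself went the other way. Ahr was at 8.98 and 8.4 in oil and 9.24 and 8.34 in TCDD thymocytes, and at 9.46 and 8.75 in oil and 8.04 and 8.53 in TCDD emigrants, so the emigrant arrays did not overlap and the thymocyte arrays did. Its difference was 0.10 in thymocytes and -0.82 in emigrants, with an interaction of -0.92 (SE 0.57), at -1.69 in the arrays numbered 1 and -0.16 in those numbered 2. A dimmer probe set of Ahr, at a mean of 5.00, had 0.04. Hsp90aa1, the chaperone that holds the receptor, had 0.07 and -0.62, and its interaction of -0.69 was -0.02 without emigrants TCDD 2. Arnt, the partner of the receptor, had -0.02 and 0.35 near background. In the list of NRF2 and phase II genes Gstm1, a glutathione transferase, was the member with the smallest p. It was at 5.84, 6.01, 5.90 and 5.84 in the thymocytes, at 5.87 and 5.89 in oil emigrants and at 6.59 and 7.17 in TCDD emigrants. Only the TCDD emigrants stood apart, with a 2.00-fold difference there, an interaction of 1.05 (SE 0.3, limma unadjusted p = 0.0116) and 0.65 and 1.46 in the replicate numbers. A second Gstm1 probe set, at a mean of 6.00, had differences of 0.06 and 0.73.

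A thymocyte-restricted gene had arrays without overlap and a mean log2 difference of at least 1 in thymocytes, with overlapping arrays and a difference under 0.5 in size in emigrants. There were 21 such genes higher under TCDD (0.169%) and 2 lower (0.0161%). Differences of the 21 in thymocytes ran from 1.00 to 2.05, and their interactions from -2.24 to -0.57 with 4 of them under an unadjusted p of 0.05. The rule itself sets the sign of these interactions.

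Mpzl2, an immunoglobulin-type adhesion protein found on thymic epithelium, had the smallest interaction p of the members named by rule. It was at 5.22 and 5.46 in oil and 7.43 and 7.34 in TCDD thymocytes, a 4.13-fold difference, and at 2.84, 3.73, 2.99 and 3.19 in the emigrants. All 4 emigrant arrays were below their medians, so no emigrant fold is given. The interaction was -2.24 (SE 0.42, limma unadjusted p = 0.00143), at -2.06 and -2.41 in the replicate numbers, and stayed between -2.68 and -1.79 with any 1 array left out. A second probe set, at a mean of 4.19, had an interaction of -2.24, and another, at 4.37, of -0.13.

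Itgae, the CD103 integrin chain that binds E-cadherin, was unequal in the same sense but fell outside the class, since its emigrant arrays did not overlap. Thymocytes had 5.52 and 6.14 with oil and 7.43 and 8.58 with TCDD, and emigrants had 7.39 and 7.41 with oil and 7.47 and 7.69 with TCDD. The oil emigrants were thus already near the level of the TCDD thymocytes. The difference was 4.51-fold in thymocytes and 1.13-fold in emigrants, and the interaction was -1.99 (SE 0.55, limma unadjusted p = 0.0105), with -1.82 and -2.16 in the replicate numbers. Its partner chain Itgb7 was among the shared genes, with an interaction of -0.18 (SE 0.31).

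Agfg1, which encodes a protein of vesicle transport, was at 7.42 and 7.46 in oil and 8.75 and 8.77 in TCDD thymocytes, and at 9.02 and 8.29 in oil and 8.43 and 8.20 in TCDD emigrants. The thymocyte arrays of each group nearly coincided and the emigrant arrays overlapped. The interaction was -1.67 (SE 0.35, limma unadjusted p = 0.00265), and a second probe set at a mean of 7.81 had -1.61. The other named members had wider spreads. Arhgap5, a GTPase-activating protein, had 1.59 in thymocytes and 0.48 in emigrants, but its interaction was 0.39 in the arrays numbered 1 and -2.62 in those numbered 2. Sgk1, a kinase induced by glucocorticoids and serum, had 1.34 and -0.10, and -0.10 and -2.78 by number. For Ifi209, an interferon-inducible gene, the interaction was -1.38 (SE 0.94), for Tmem71, a membrane protein, -1.22 (SE 0.95), for Lats2, a Hippo pathway kinase, -1.21 (SE 0.77), and for Add3, an adducin of the membrane skeleton, -1.32 (SE 0.82). These 4 intervals included 0. Another probe set of Add3, at a mean of 6.05, had an interaction of -0.31, and one of Ifi209, at 6.17, had -2.27. Dim probe sets of Lats2, at means of 4.37 and 4.17, had interactions of -0.07 and 0.36. The other members were Rabgap1l, Nrp1, Atrx, Nsg2, Nrip1, Dipk2a, Edem3, 1700097N02Rik, Myl4, Abca1, Hspa1b, Pitpnc1 and Ifi27l2a, with interactions from -1.46 for Rabgap1l to -0.57 for Ifi27l2a. The 2 genes lower in thymocytes were Tgm2, a transglutaminase, at -1.33 and -0.03 in emigrants, and Spats2, at -1.30 and -0.31, with interactions of 1.30 (SE 0.97) and 0.99 (SE 0.79).

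Emigrant-restricted genes, by the mirror-image rule, were 6 higher (0.0484%) and 11 lower (0.0888%) under TCDD. Eomes, a T-box factor of natural killer (NK) and memory T cells, was the lower gene with the smallest p. It was at 8.22 and 7.75 in oil and 6.24 and 5.22 in TCDD emigrants, and at 5.11, 5.62, 4.84 and 5.33 in thymocytes. The oil emigrants stood above every other array, the emigrant difference was -2.26 (4.78-fold lower), and the interaction was -1.98 (SE 0.56, limma unadjusted p = 0.011), with -1.71 and -2.24 by number. Its other probe set was dim, with -0.52.

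Ifng, interferon gamma, was at 7.55 and 8.49 in oil and 6.84 and 5.75 in TCDD emigrants, and at 4.91 and 6.23 in oil and 4.71 and 6.76 in TCDD thymocytes. The emigrant difference was -1.73 and the interaction -1.90 (SE 1.13), at -0.52 and -3.28 by number. Itm2a, a membrane protein of activated T cells, had -1.78 in emigrants and -0.12 in thymocytes, but its other probe set, at a mean of 6.58, had -0.48 and -0.41. Sh2d1a, the adaptor SAP, had -1.32 and -0.35. For Ramp1, a receptor-modifying protein, the emigrant difference of -1.34 came mostly from emigrants TCDD 2, at 5.18 against 7.57 to 7.78 in the other emigrant arrays, and the interaction was -0.06 without it. Cep55 of cytokinesis, the nucleolar protein Ncl and Dcun1d5 had interactions of -1.41 (SE 1.13), -0.94 (SE 0.7) and -0.93 (SE 0.84). For Cep55 and Ncl the oil emigrants differed most among themselves, at 6.56 and 8.35 and at 8.45 and 9.72. Another probe set of Ncl, at a mean of 5.31, had -0.48 in emigrants and -0.51 in thymocytes, with an interaction of 0.03. The last members were Psip1, Reck and Ptcra, with interactions of -1.25, -1.23 and -1.19.

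Several of the 6 emigrant-restricted higher genes rested on single arrays. Gja1, the main gap junction protein of the heart, was at 9.63 in emigrants TCDD 2 and between 5.20 and 6.34 in the other 7 arrays, and its interaction of 1.90 (SE 1.61) was -0.07 without that array. Prtn3, a granule protease of myeloid precursors, was at 6.89 in emigrants TCDD 1 and between 4.95 and 5.90 elsewhere. Anxa3, an annexin of neutrophils, was at 4.5 in emigrants oil 1 and between 5.58 and 6.52 elsewhere. Smap2, an Arf GTPase-activating protein, was higher in both TCDD emigrants, at 6.62 and 6.74 against 5.84 and 5.22, with 6.63, 5.64, 6.93 and 5.64 in thymocytes and an interaction of 1.00 (SE 0.72). Cd8a had an emigrant difference of 1.01 and an interaction of 0.82 (SE 1.15), and Tmigd1 had one of 1.33. A dimmer probe set of Cd8a, at a mean of 4.43, had an emigrant difference of -0.01 and an interaction of -0.28.

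**Figure D3:**
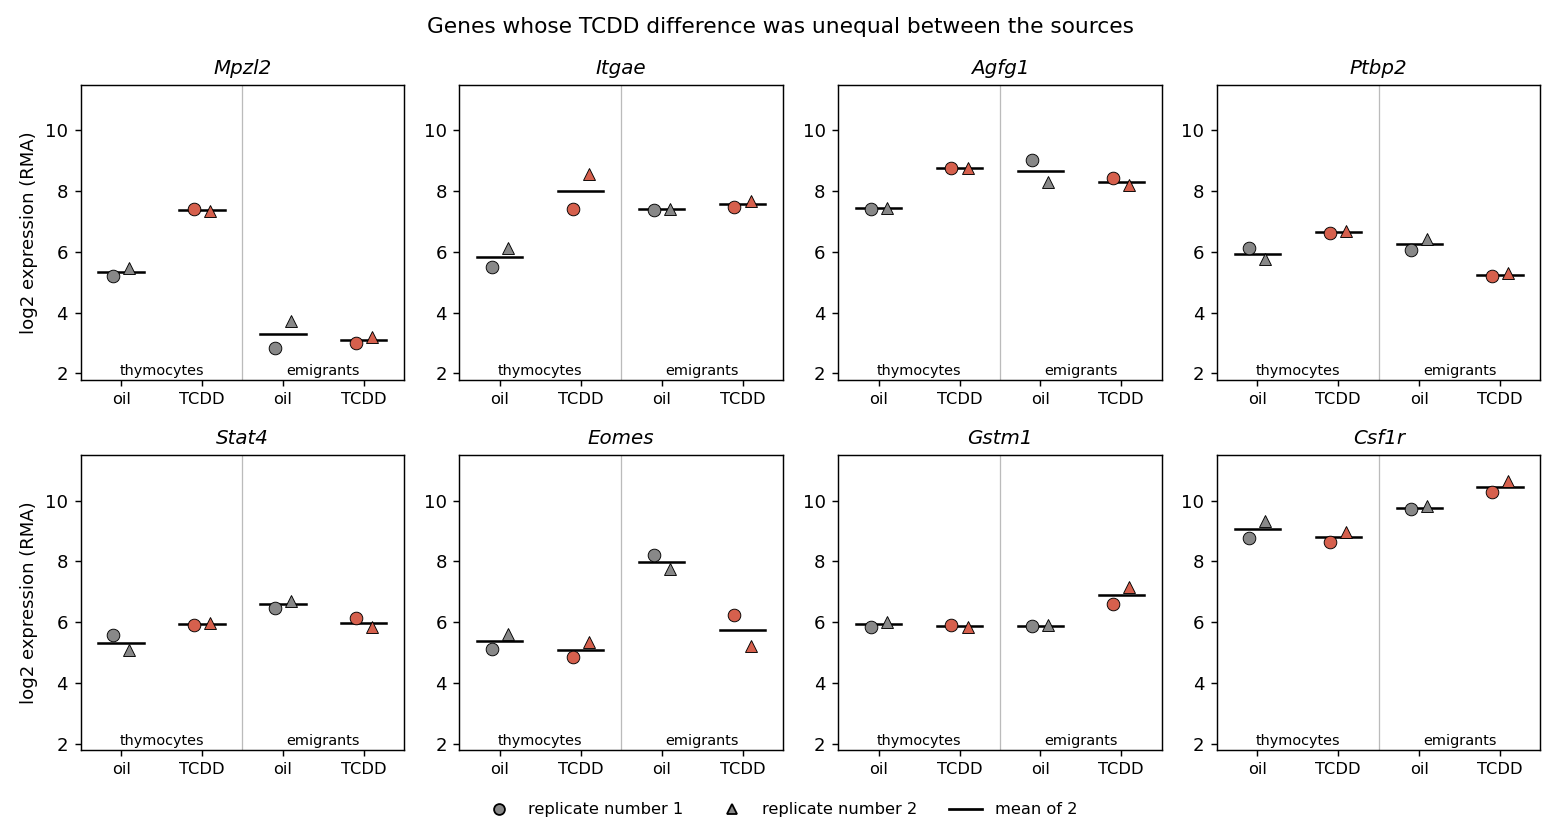
Log2 expression (RMA) of 8 genes with unequal TCDD differences in the 2 sources, drawn as in the plot of the shared genes with 1 point per array and a bar at the mean of 2. Mpzl2, Itgae and Agfg1 differ in the thymocytes, Eomes, Gstm1 and Csf1r in the emigrants, and Ptbp2 and Stat4 in opposite directions.

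Opposite differences of at least 0.5 in both sources, with no overlap in either, were found for 14 genes that were higher under TCDD in thymocytes and lower in emigrants (0.113%), and for 2 in the reverse sense (0.0161%). Interactions of the 14 ran from -2.05 to -1.08, and 12 of them had an unadjusted p under 0.05, a consequence of how they were chosen. Ptbp2, a splicing regulator, had the smallest interaction p of the genes open to naming. These exclude predicted genes and genes without both arrays of some group above their array medians. It was at 6.12 and 5.78 in oil and 6.61 and 6.69 in TCDD thymocytes, and at 6.08 and 6.43 in oil and 5.20 and 5.31 in TCDD emigrants. All 4 oil arrays lay between the TCDD thymocytes above and the TCDD emigrants below. The differences were 0.70 and -1.0 (1.63-fold higher and 2.01-fold lower), and the interaction was -1.71 (SE 0.27, 95% interval -2.36 to -1.06, limma unadjusted p = 0.000561), between -1.88 and -1.53 with any 1 array left out. Its other probe set, at a mean of 4.92, had -0.16.

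Klrd1 and Stat4 were in the same class. Klrd1, the CD94 chain of NK receptors, was at 6.65 and 6.73 in oil and 6.76 and 8.05 in TCDD thymocytes, and at 9.64 and 9.15 in oil and 8.96 and 7.16 in TCDD emigrants. Its interaction was -2.05 (SE 0.92), and -1.15 without emigrants TCDD 2. Stat4, which carries interleukin-12 signals, was at 5.56 and 5.08 in oil and 5.90 and 5.96 in TCDD thymocytes, and at 6.46 and 6.70 in oil and 6.13 and 5.83 in TCDD emigrants, with an interaction of -1.21 (SE 0.3, limma unadjusted p = 0.00651). The others named by rule serve mostly general functions, and their interactions were -1.60 for Cnot7, a deadenylase subunit, -1.54 for Phtf2, -1.33 for Retreg1, a receptor for autophagy of the endoplasmic reticulum, -1.32 for Gmfb, -1.23 for Gpcpd1, a glycerophosphodiesterase, and -1.19 for Sesn3, a stress-inducible sestrin. Sh3bp5, Galnt7, C230091D08Rik, Stk26 and Arl14ep completed the class, with interactions from -1.49 for Sh3bp5 to -1.08 for Arl14ep. Another probe set of Gmfb, at a mean of 6.26, had an interaction of -0.26, and one of Retreg1, at 5.80, had -0.61. In the reverse sense Ms4a3, a membrane protein of granulocyte precursors, had -0.73 in thymocytes and 1.46 in emigrants, with emigrants TCDD 1 at 7.80 and the other arrays between 5.08 and 6.70. Acod1, the itaconate-making enzyme of activated macrophages, had -0.53 and 0.61 near background.

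Among the genes open to naming, those with the smallest p and an interaction above 0 were Parvg, Znhit1, Elane, Ccnd3 and Capzb. Parvg, an actin-binding parvin of leukocytes, was at 7.67 and 7.81 in oil and 6.80 and 6.74 in TCDD thymocytes, and at 6.63, 6.89, 6.79 and 6.91 in the emigrants. Oil thymocytes thus stood above the other 6 arrays, and the interaction was 1.06 (SE 0.22, limma unadjusted p = 0.00254). A second, dimmer Parvg probe set, at a mean of 5.14, had a thymocyte difference of -0.08 and an interaction of 0.33. Ccnd3, the cyclin D used by dividing thymocytes, had -0.71 in thymocytes and 0.37 in emigrants, and Capzb, an actin-capping subunit, -0.62 and 0.45, both with an interaction of 1.08. For Elane, neutrophil elastase, the differences were -0.31 and 0.62, and for Znhit1, a chromatin-remodelling subunit, -0.51 and 0.35. The other probe sets read for Capzb and Znhit1 did not share this, with interactions of -0.07 and -0.05 for the former and 0.15 for the latter, and they were dimmer. A further Capzb probe set is not given here. On the other side, after Ptbp2 and Mpzl2, Vbp1, a prefoldin subunit, had an interaction of -1.28 (SE 0.24, limma unadjusted p = 0.00152), with TCDD emigrants at 8.61 and 8.65 below the other arrays, which lay between 9.38 and 10.01.

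Gene lists on thymocyte development and function were then read for their interactions. In these bulk samples fewer cells of a type and less RNA per cell cannot be told apart. The list of pre-TCR and recombination genes, which build and test the first T cell receptor chain, had 13 of 14 members below 0 and a median of -0.37, with medians of 0.27 in thymocytes and -0.14 in emigrants. The median was -0.33 and -0.55 by number and stayed between -0.58 and -0.24 with any 1 array left out. Single emigrant arrays stood apart for some members. Rag1, which cuts the receptor genes, was at 3.89 and 9.81 in oil and 5.10 and 3.75 in TCDD emigrants, with an interaction of 0.85 in the arrays numbered 1 and -6.36 in those numbered 2, so its high array was emigrants oil 2. Dntt, which adds bases at the joins, was at 9.82 and 10.68 in oil and 11.62 and 6.09 in TCDD emigrants, with 1.76 and -4.19, so its low array was emigrants TCDD 2. Ptcra, the pre-TCR alpha chain, was at 5.35 and 7.00 in oil and 5.25 and 5.08 in TCDD emigrants, against 8.83 to 9.45 in the thymocytes. Its interaction of -1.19 was -0.37 without emigrants oil 2. Nrarp and Notch3 of the Notch pathway had like values in both numbers, at -0.59 and -0.57 and at -0.35 and -0.31, but another probe set of Nrarp, at a mean of 5.81, had -0.02.

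The T cell receptor list had 10 of 12 members below 0, with a median of -0.39, medians of 0.02 in thymocytes and -0.39 in emigrants, and a range from -0.77 to -0.14 with 1 array left out. Cd3g had an interaction of -0.56 (SE 0.3), Cd2 -1.36 (SE 0.9) and Lcp2, the adaptor SLP-76, -0.76 (SE 0.63), while Cd3e had 0.26 and Zap70 0.25. The median turned its sign when emigrants oil 1 was treated as TCDD. In the interferon list all 20 members had a difference above 0 in thymocytes and 12 in emigrants, with medians of 0.34 and 0.09, and 17 of 20 interactions were below 0 with a median of -0.22. Irgm1, an interferon-induced GTPase, was at 6.55, 6.75, 6.72 and 6.68 in thymocytes, at 7.02 and 7.61 in oil and 6.69 and 6.49 in TCDD emigrants, with an interaction of -0.77 (SE 0.31, limma unadjusted p = 0.047). Without thymocytes TCDD 2 the list's median was 0.01.

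Glycolysis genes all lay on 1 side. Of 14 measured members all had an interaction above 0, with a median of 0.42, at 0.50 and 0.36 by number and from 0.30 to 0.71 with 1 array left out. In thymocytes 13 of 14 differences were below 0, 10 of them without overlap (against 11.4% of all genes), with a median of -0.31, and in emigrants 10 were above 0, with a median of 0.09. Hk2, hexokinase 2, was at 7.23, 7.26, 7.12 and 7.03 in thymocytes and at 6.56 and 7.17 in oil and 7.17 and 7.88 in TCDD emigrants, with an interaction of 0.83 (SE 0.41). Pkm, pyruvate kinase, had -0.69 and 0.16, and an interaction of 0.85 (SE 0.43), and Pgam1, phosphoglycerate mutase, -0.55 and 0.04. No member passed an unadjusted p of 0.05. Gapdh is itself a member, and its 3′ to 5′ control signals moved with the interaction, as given above.

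Genes of dividing cells were unequal between the replicate numbers. All 20 DNA replication genes had a difference below 0 in thymocytes (median -0.57, 7 without overlap against 11.4% of all genes) and 16 in emigrants (median -0.22). Interactions were above 0 for 16, with a median of 0.30, which was 0.88 in the arrays numbered 1 and -0.06 in those numbered 2, and -0.14 without emigrants oil 1. The mitosis list had medians of -0.30 and -0.13 and by number 0.73 and -0.42. Immediate early genes, which switch on fast after a stimulus, had 14 of 18 interactions above 0 and a median of 0.35, with medians of 0.00 in thymocytes and 0.32 in emigrants. The median interaction was 0.08 without thymocytes oil 2, and it turned its sign when emigrants oil 1 was treated as TCDD. Klf4 had 0.13 and 0.83, Ier3 0.26 and 0.85 and Fos 0.33 and 0.90, none under an unadjusted p of 0.05. Fdft1, squalene synthase, was the cholesterol gene with the smallest p, at 6.26 and 6.45 in oil and 5.67 and 5.57 in TCDD thymocytes, and at 6.07, 5.71, 6.24 and 5.72 in emigrants, with an interaction of 0.82 (SE 0.32, limma unadjusted p = 0.0398).

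Integrin, homing and progenitor lists were mixed. In the integrin and adhesion list 9 of 14 interactions were below 0 (median -0.12). Itgae and Mpzl2, both below 0, were the 2 with an unadjusted p under 0.05 (against 0.888% of all genes). This list too was chosen with earlier results of these data known. The homing and egress list, with the sphingosine receptors S1pr1 (-0.42, SE 0.52) and S1pr4 (-0.55, SE 0.48), had a median of -0.11. The progenitor list had a median of 0.16, and its member Csf1r, the receptor of the macrophage growth factor, was at 8.77 and 9.34 in oil and 8.64 and 8.97 in TCDD thymocytes, and at 9.71 and 9.81 in oil and 10.28 and 10.63 in TCDD emigrants. Only the emigrant arrays did not overlap, and the interaction was 0.95 (SE 0.35, limma unadjusted p = 0.0326), with 0.86 in a second probe set at a mean of 7.49.

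**Figure D4:**
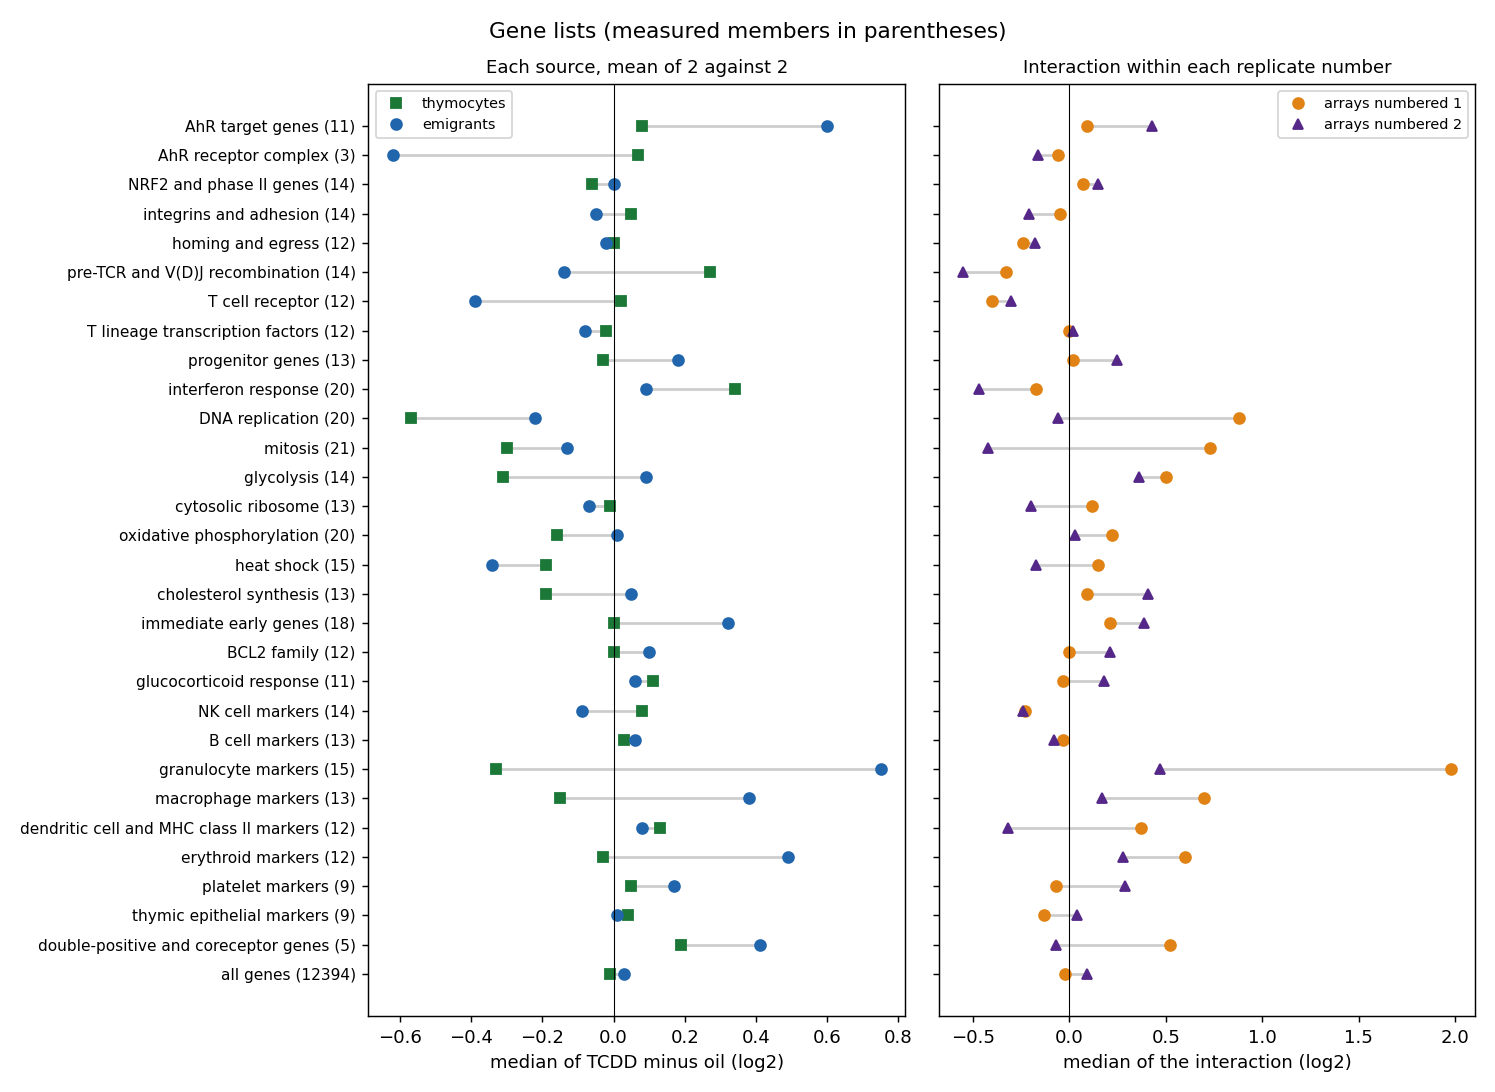
Median log2 difference between TCDD and oil for each of 29 gene lists and for all genes, in thymocytes (squares) and emigrants (circles) on the left, and the median interaction within the arrays numbered 1 (circles) and 2 (triangles) on the right. The granulocyte list reaches 1.98 in the arrays numbered 1 and 0.47 in those numbered 2, and the DNA replication list 0.88 and -0.06.

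Markers of other blood cells moved with the comparison. All 15 measured granulocyte markers had an interaction above 0, with a median of 0.96, and their differences were above 0 in 3 of 15 in thymocytes (median -0.33) and in 15 of 15 in emigrants (median 0.75). The mean level of the list was 5.89 and 5.65 in oil and 7.69 and 5.42 in TCDD emigrants, and 6.92 and 6.38 in oil and 6.87 and 5.85 in TCDD thymocytes. The high array was emigrants TCDD 1, without which the median interaction was 0.09. Mpo, myeloperoxidase, had an interaction of 3.93 in the arrays numbered 1 and 0.98 in those numbered 2. Elane was even between the emigrant arrays, at 6.17 and 6.27 in oil and 6.89 and 6.78 with TCDD, and its interaction of 0.93 (SE 0.23, limma unadjusted p = 0.00562) was between 0.77 and 1.1 with any 1 array left out. Prtn3 and Ms4a3 in the classes above carry the same high array.

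Macrophage markers had 11 of 13 interactions above 0 with a median of 0.48, and erythroid markers 11 of 12 with a median of 0.48. The macrophage list had mean levels of 5.71 and 6.63 in oil and 6.28 and 6.78 in TCDD emigrants, and of 5.43 to 5.97 in thymocytes, and its median was -0.05 without emigrants TCDD 2. The erythroid list had 6.18 and 5.25 in oil and 6.81 and 5.50 in TCDD emigrants and 5.12 to 5.29 in thymocytes, with a median of -0.13 without emigrants TCDD 1. NK cell markers had 10 of 14 interactions below 0 with a median of -0.30, and mean levels of 7.22 and 7.08 in oil and 6.98 and 6.63 in TCDD emigrants against 6.14 to 6.70 in thymocytes. Their median was -0.60 without thymocytes TCDD 1 and -0.11 without emigrants TCDD 1. Platelet markers had 7 of 9 above 0 (median 0.12), B cell markers 6 of 13 (median 0.00) and thymic epithelial markers 4 of 9 (median 0.00). Of the defining B cell genes Pax5, Cd79a and Ebf1 lay below the array medians in all 4 groups, while Ms4a1 was at 6.96 to 8.93 in thymocytes and 4.57 to 5.36 in emigrants, Cd79b at 6.14 to 7.55 and 4.89 to 5.69, and Blk at 7.09 to 9.51 in the 8 arrays. The part of other cell types in the interactions was not tested.

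The interaction was also read within each replicate number. Of the 12394 genes 6367 (51.4%) had the same sign in both numbers, and r between the 2 sets of values across genes was 0.13. At 1 log2 unit or more in both numbers there were 10 genes above 0 (0.0807%) and 47 below 0 (0.379%). The 10 were Ahrr, Ms4a3, Acod1, Capzb, Parvg, Cad, Shmt2, Car2, Chil3 and Tgfbi, and the last 5 were named after their values were seen. Among the 47 were Cyp1b1, Mpzl2, Itgae, Agfg1, Ptbp2, Eomes, Itm2a, Gmfb, Gpcpd1, Phtf2, Retreg1, Vbp1, Add3, Tmem71 and Epcam. The SD of the difference between same-numbered arrays across genes was 0.29 and 0.32 in thymocytes and 0.28 and 0.44 in emigrants, with the last belonging to the arrays numbered 2, which include emigrants TCDD 2.

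**Figure D5:**
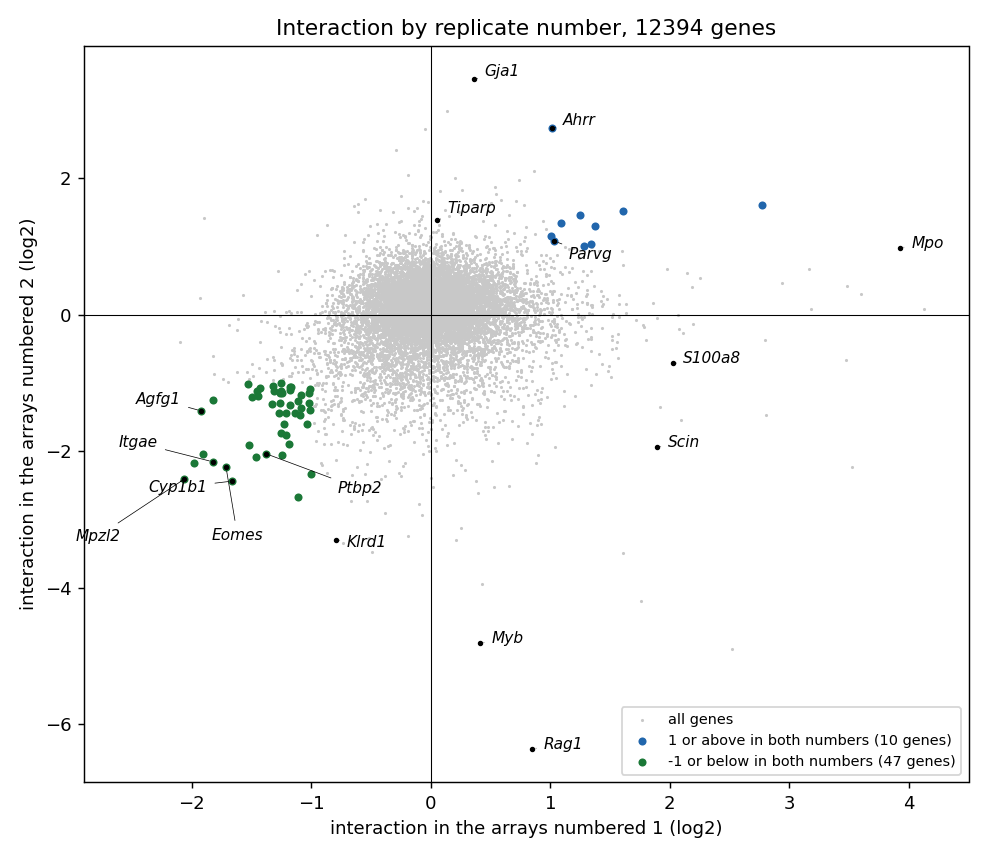
The interaction of each of 12394 genes in the arrays numbered 1 (x axis, log2) and in the arrays numbered 2 (y axis, log2). The 10 genes at 1 or above in both are blue and the 47 at -1 or below in both are green, while Rag1 (0.85 and -6.36), Scin (1.89 and -1.94) and Gja1 (0.36 and 3.45) take unequal values in the 2 numbers.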

How the data were processed

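The authors deposited log2 values of 22690 probe sets for 8 Affymetrix arrays, and RMA, with no version, is named in the submitters' processing notes. RMA removes background, gives all arrays one distribution and combines probes into probe sets, which hides any shift that most genes share and compresses dim differences. The deposited values ran from 2.54 to 13.9. A scanner's signal over background was not used here, so a group was taken as dim when neither of its arrays exceeded the array median, and folds are left out for it.

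Gene names come from the platform's annotation, brought up to date by gene identifier through a RefSeq table (GRCm38.p6). Of them 20393 had 1 symbol, 691 several and 1606 none, and only the first kind was used. For each of 12394 genes the brightest probe set on average was kept, and 4958 genes had several. Other probe sets are given in the text for some of the named genes, not for all.

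The interaction was fitted with limma 3.58.1 in R 4.3.3 (group means, lmFit, eBayes, 4 residual degrees of freedom, prior degrees of freedom 2.34, median residual SD 0.223, two-sided), with Benjamini-Hochberg adjustment over all genes, a threshold of 0.05 and 95% intervals from the same fit. Classes were counts with no test. A shared or opposite difference was at least 0.5 in size and a restricted one at least 1. The code was tested on simulated data with independent noise of each gene's own spread and 50 changed genes per size. At an adjusted p under 0.05 it recovered 6% of interactions of 1, 60% of 2, 84% of 4 and 98% of 8. It also called 7 unchanged genes. Most interactions of 1 would thus be missed at this number of arrays. Figures were drawn with matplotlib 3.10.9 in Python 3.11.15.

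The comparison, the 29 gene lists (438 entries, 384 measured) and the classes were chosen with earlier results of these data known. Genes were named by a rule. It took the 5 with the smallest interaction p in each direction and up to 8 of each class by size. For these, predicted genes and genes without both arrays of some group above their array medians were left aside. Without that filter it also took the AhR target genes and up to 3 of each other list by p. The other members of the shared higher class and of the smaller opposite class, and others so marked, were named after their values were seen. Further list members are given with their values as examples, also chosen after their values were seen.

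Alternatives were another normalization, centring, brighter genes only, other ways to use probe sets, eBayes with trend and robust settings, replicate blocks, other size limits, the Treatment field for emigrants oil 1 instead of its title, and fits with each array omitted.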

Additional observations from a re-analysis of the deposited data

Results flagged for a closer look

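Both TCDD arrays lay on opposite sides of both oil arrays in the 2 sources for 18 of the named genes. The difference itself was tested with limma's interaction contrast, and none of the 18 passed Benjamini-Hochberg adjustment. The interaction was above 0 for Ms4a3 (2.19), Acod1 (1.14), Ccnd3 (1.08), Capzb (1.08), Elane (0.93), Znhit1 (0.86), Bcl2l1 (0.45) and Itgax (0.37), which were relatively higher in the emigrants. It was below 0 for Klrd1 (-2.05), Ptbp2 (-1.71), Cnot7 (-1.60), Phtf2 (-1.54), Retreg1 (-1.33), Gmfb (-1.32), Vbp1 (-1.28), Gpcpd1 (-1.23), Stat4 (-1.21) and Sesn3 (-1.19). In 314 of all genes the arrays stood on opposite sides in this way, and in 325 on the same side.

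Median differences of 4 gene lists had opposite signs in the 2 sources in both replicate numbers, which was not tested. The median interaction was 0.42 for glycolysis, 0.48 for macrophage markers, 0.48 for erythroid markers and -0.69 for the 3 measured genes of the AhR receptor complex, whose medians by number were -0.06 and -0.16.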

How the results depend on the processing

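The adjusted count stayed at 0 in every setting except when the Treatment field put emigrants oil 1 among the TCDD arrays, where limma called 1 gene, Fstl1 (interaction -3.30), with emigrants oil 2 at 7.13 and the other 7 arrays between 4.0 and 4.34. In that setting there were 254 genes at an unadjusted p under 0.05, 39 shared higher, 62 shared lower, 5 opposite and higher in emigrants, 1 thymocyte-restricted lower, and 40 emigrant-restricted higher and 137 lower. The 146 genes at an unadjusted p became 67 among brighter genes only, where fewer genes are tested, 258 over every probe set, 248 with the replicate number as a block and 792 with a replicate block within each source. Deviations from the group means correlated at 0.76 within thymocytes and 0.5 within emigrants, but between -0.1 and 0.11 across sources, and 2 numbers cannot show pairing. Both block fits called 0 genes after adjustment.

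Over every probe set there were 10 shared lower, 28 opposite and higher in thymocytes, 32 thymocyte-restricted higher, 25 emigrant-restricted lower, and 16 at 1 or above and 75 at -1 or below in both numbers. With the mean over probe sets these were 2, 7, 10 and, in both numbers, 6 and 22, with 1 thymocyte-restricted lower. A repeated quantile normalization left 7 opposite and higher in thymocytes, brighter genes only left 1 opposite and higher in emigrants, and centring left 3 emigrant-restricted higher. A size of at least 1 left 7 shared higher, 0 shared lower and 0 and 0 opposite. A limit of 0.25 in the other source left 1 thymocyte-restricted lower. Class members changed too. Of the 14 genes opposite and higher in thymocytes, quantile normalization kept 7 and the mean over probe sets 5, while centring and brighter genes kept 14 and 14. Quantile normalization and the mean over probe sets kept 15 and 9 of the 21 thymocyte-restricted higher genes. Centring kept 3 of the 6 emigrant-restricted higher genes. Of the 13 shared higher genes 12 were also found after quantile normalization, 13 after centring, 10 among brighter genes, 10 with the mean over probe sets, 8 under the Treatment field, and 10 to 13 with 1 array left out.

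With 1 array left out, unadjusted calls numbered 145 to 519 and adjusted calls 0 to 0, shared higher 15 to 40, shared lower 6 to 55, opposite 20 to 65 and 6 to 30, thymocyte-restricted 7 to 118 higher and 0 to 78 lower, and emigrant-restricted 0 to 94 higher and 2 to 186 lower. A lone array is compared more easily without overlap, and is assumed to vary like the others. Of 140 gene interactions, 32 turned sign without some array and 14 in another setting, and 116 moved over 1.5 times or turned without an array. Of the 23 at an unadjusted p under 0.05, 0 turned sign and 13 moved over 1.5 times. These 23 were picked by their p from the same arrays, which makes a sign turn unlikely, so the 0 does not show stability. Medians of 20 of 29 lists turned sign in some setting, while those of the AhR targets, receptor complex, NRF2, pre-TCR, glycolysis, BCL2 family, NK, granulocyte and platelet lists did not.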

Other observations

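Of the 10 genes with an interaction of at least 1 in both replicate numbers, 4 not described above were chosen after their values were seen. Shmt2, the mitochondrial serine hydroxymethyltransferase, had a log2 difference of -1.01 in thymocytes and 0.32 in emigrants, with interactions of 1.38 and 1.30 by number. Cad, which starts pyrimidine synthesis, had -0.85 and 0.51, with 1.25 and 1.46. For Chil3, a chitinase-like protein, the interactions by number were 1.61 and 1.52, and for Tgfbi, an extracellular matrix protein, 1.34 and 1.04.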
